A study of Homo sapiens with 6 samples.

Results

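MHC class I molecules show peptides from inside the cell to cytotoxic T cells at the cell surface. A polymorphic heavy chain pairs with beta-2-microglobulin in the endoplasmic reticulum. The transporter TAP brings peptides in from the cytosol, tapasin helps to load them and the aminopeptidase ERAP1 trims them. Several of the genes share upstream elements that interferon-induced factors and the transactivator NLRC5 act through, and tumour cells with little class I are less visible to T cells. The 9 genes described here are the rows of the deposited expression table for HLA-B, HLA-C, HLA-E, B2M, TAP1, TAP2, TAPBP, ERAP1 and NLRC5, out of 41768 genes. The rule names them by their role and uses no measured value, but the genes were chosen with earlier results of these data known. Not every class I heavy chain gene is described.

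The series measured poly(A)-selected RNA from cultured pancreatic ductal adenocarcinoma (PDAC) cells. PANC-1, an established human PDAC line, gave 2 libraries labelled siALDOA and 1 labelled NC. The line named 90 in the labels gave as many of each. siALDOA is taken here to mean small interfering RNA against ALDOA, which encodes the glycolytic aldolase A. The labels do not say what 90 and NC mean or whether siALDOA 1 and 2 are different siRNAs. They name no separate cultures either, and the spread that p-values rest on may therefore be technical. Only RNA was measured, not protein or surface level.

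Values are FPKM, fragments scaled to gene length in kilobases and to library size in M (mega). Depth read from the smallest steps of short RNAs was 17.7 to 21.8 M fragments per library. ALDOA was at 501, 462 and 906 FPKM in siALDOA 1, siALDOA 2 and NC of PANC-1, and at 262, 318 and 726 FPKM in those of 90, lower in each siALDOA library than in NC. The epithelial markers KRT8, KRT18, KRT19, EPCAM and CDH1 were all at 1 FPKM or more in every library. Of these, CDH1, EPCAM and KRT19 were called lower in PANC-1, as class I genes were (log2 difference -4.00, -3.03 and -1.43, limma adjusted p = 2.28e-04, 3.51e-03 and 3.67e-03). KRT8 and KRT18 lay the other way and were not called (log2 difference 0.46 and 0.35, limma adjusted p = 0.122 and 0.176). Of all 12592 tested genes, 18.4% were called lower in PANC-1. Class I genes are also strongly expressed by leukocytes. The leukocyte markers PTPRC and CD3E were at 0.0169 FPKM or less and at 0.0347 FPKM or less in every library. Of the other leukocyte markers, LAPTM5 was at 0.429, 0.214 and 0.325 FPKM in PANC-1 and at 66.7, 74.8 and 88.5 FPKM in 90, and it alone sets the difference in the summed list, at 0.858 to 1.71 FPKM in PANC-1 and at 66.9 to 88.9 FPKM in 90. CD14, a monocyte marker, was at 0.722, 0.389 and 0.412 FPKM in PANC-1 and at 0.0623, 0.383 and 0.376 FPKM in 90, and the B cell marker CD79A was at 0.546, 0.255 and 0.308 FPKM in PANC-1 and at 0.163, 0.334 and 0.0894 FPKM in 90. The part of the epithelial and leukocyte markers in the class I difference between the lines was not tested.

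HLA-B, HLA-C and B2M carry matches to the same motifs upstream of their starts, though not all on the same strand. These sequences and that of TAP1 are shown as examples of genes called lower in PANC-1. TAP2 was called lower too and is not shown. The part of the motifs in the difference between the lines was not tested. RefSeq windows (GRCh38.p14) were matched for 7 of the 9 genes, with no entry for HLA-E and NLRC5. Each sequence below is the 250 bases before the start, 5′ to 3′ on the strand of the gene. Capitals mark matches on either strand to the IRF core AANNGAAA, the tandem form (GAAA, any 2 bases, GAAA), the NF-kappaB motif, the CRE core TGACG and the CCAAT motif with its flank, CCAATCAG. The windows lie at chr6:31357180-31357429 (minus strand) for HLA-B, chr6:31272093-31272342 (minus) for HLA-C, chr15:44711267-44711516 (plus) for B2M and chr6:32853705-32853954 (minus) for TAP1, which has a further RefSeq start not shown.
HLA-B: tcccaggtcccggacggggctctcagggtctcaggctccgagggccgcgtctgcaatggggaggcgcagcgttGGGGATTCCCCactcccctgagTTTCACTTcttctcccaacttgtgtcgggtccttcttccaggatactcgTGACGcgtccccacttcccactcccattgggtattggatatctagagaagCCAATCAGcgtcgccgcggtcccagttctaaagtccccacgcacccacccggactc
HLA-C: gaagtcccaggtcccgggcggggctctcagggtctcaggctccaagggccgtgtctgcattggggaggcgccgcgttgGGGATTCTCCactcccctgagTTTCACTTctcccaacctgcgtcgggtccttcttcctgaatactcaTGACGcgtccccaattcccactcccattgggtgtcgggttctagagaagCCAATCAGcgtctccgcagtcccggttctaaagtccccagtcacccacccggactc
B2M: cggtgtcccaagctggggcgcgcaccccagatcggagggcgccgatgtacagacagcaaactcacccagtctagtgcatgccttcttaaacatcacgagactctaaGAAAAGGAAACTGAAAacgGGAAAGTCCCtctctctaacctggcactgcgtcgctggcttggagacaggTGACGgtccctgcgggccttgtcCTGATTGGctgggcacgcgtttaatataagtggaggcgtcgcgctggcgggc
TAP1: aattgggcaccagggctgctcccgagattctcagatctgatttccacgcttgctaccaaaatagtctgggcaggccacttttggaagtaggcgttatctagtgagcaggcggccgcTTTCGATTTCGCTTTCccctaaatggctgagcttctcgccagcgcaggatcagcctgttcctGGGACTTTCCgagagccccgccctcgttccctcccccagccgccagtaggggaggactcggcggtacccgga

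HLA-B and HLA-C held, from far to near, an NF-kappaB match, an IRF core, a CRE core and CCAATCAG. The IRF core lay from -155 to -148 relative to the start in HLA-B and from -151 to -144 in HLA-C, and CCAATCAG lay at the same place in both, from -56 to -49. B2M had its IRF core matches farther from the start than its NF-kappaB match, and CCAATCAG on the other strand from -52 to -45. TAP1 had an IRF core in tandem form and an NF-kappaB match, with neither of the other motifs in the window. TAP2 had a tandem form from -58 to -49 and a CRE core, and TAPBP an NF-kappaB match and tandem forms between -20 and -5. ERAP1 had an NF-kappaB match alone in the first of its windows. Among 35116 RefSeq windows of this length, the IRF core occurs in 20.3%, the tandem form in 3.02%, the NF-kappaB motif in 9.96%, the CRE core in 21.2% and CCAATCAG in 3.81%. The IRF core, the CRE core and CCAATCAG occur together in 0.171% of the windows. HLA-B, HLA-C and B2M carry this very combination and no other was counted, so the share is no independent measure for them. TAP1 and TAP2, also called lower in PANC-1, lack it. The IRF core overlaps the tandem form, and a match is a description of letters, not a site in use.

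**Figure D1:**
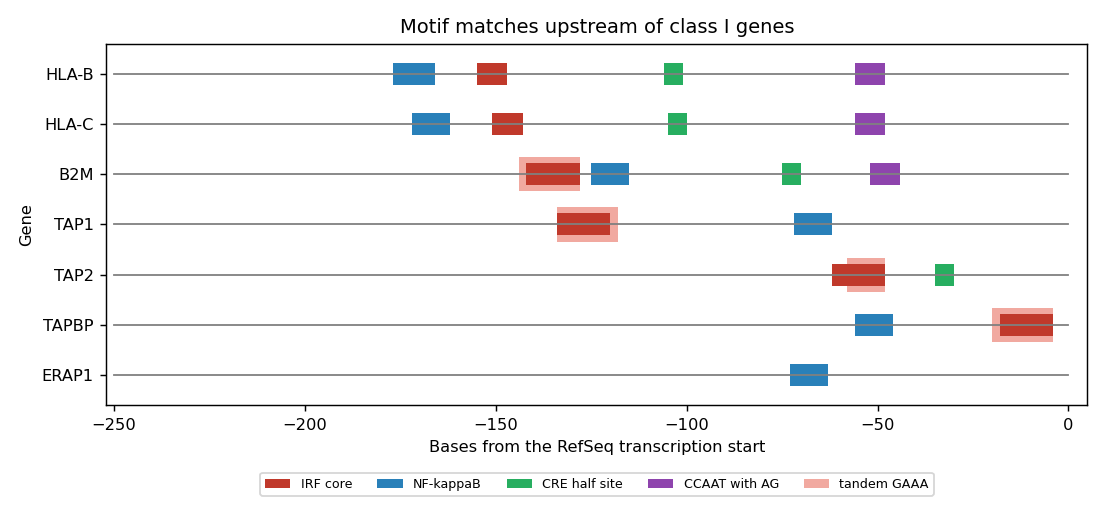
Motif matches in the 250 bases upstream of the RefSeq start of 7 genes, with bases from the start on the horizontal axis and 1 row per gene; tall pale boxes are the tandem form and the other boxes are the motifs named in the legend, for the first window of each gene. HLA-B, HLA-C and B2M each carry an IRF core, a CRE core and CCAATCAG, the last between -56 and -45.

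Class I genes were much lower in PANC-1 than in 90. Of the 9 genes, 7 were called lower in PANC-1 at a limma adjusted p under 0.05 and 0 were called higher, against 18.4% of 12592 tested genes called lower. NLRC5, among the 7, passed the filter at a mean of 1 FPKM through its level in 90. With a filter at a mean of 5 FPKM, which left NLRC5 out, 6 of 8 were called lower, against 1557 of 8035 tested genes. The median log2 difference of the 9 was -1.93, against 0.13 over all tested genes. The comparison takes siALDOA and NC libraries of a line together, and NC of PANC-1 against NC of 90 alone was not tested. Whether fewer cells expressing a gene or less RNA per cell underlies a lower level cannot be told apart in bulk samples. The lines differ in much besides, and the properties behind the difference cannot be told apart.

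HLA-B and HLA-C, the polymorphic heavy chains, were far lower in PANC-1. HLA-B had the widest difference of the 9 genes, while the place of HLA-C depends on the pseudocount, since with 0.1 in place of 1 FPKM the log2 difference was -3.41 for HLA-C and -3.44 for NLRC5. HLA-B (chromosome 6, 31353875 to 31357179) was at 19.6, 14.5 and 20.1 FPKM in siALDOA 1, siALDOA 2 and NC of PANC-1, and at 306, 517 and 274 FPKM in those of 90. Its mean was 20.3-fold lower in PANC-1 (18.0 ± 3.10 against 366 ± 132 FPKM, SD, n = 3 libraries each; log2 difference -4.23, SE 0.292, limma adjusted p = 5.48e-04). The lowest 90 library lay far above the highest PANC-1 library. HLA-C (chromosome 6, 31268749 to 31272092) was at 35.5, 24.7 and 31.2 FPKM in PANC-1 and at 274, 463 and 260.4 FPKM in 90, a mean 10.9-fold lower in PANC-1 (log2 difference -3.37, SE 0.276, limma adjusted p = 9.14e-04). Class I heavy chain genes share long stretches of sequence, and alleles differ from the reference, so reads can be split or lost among them and their FPKM are uncertain.

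HLA-E, the less variable heavy chain that presents leader peptides of other class I chains to NK cell receptors, differed less. HLA-E (chromosome 6, 30489509 to 30494194) was at 46.4, 34.9 and 42.8 FPKM in PANC-1 and at 90.6, 135 and 89.1 FPKM in 90, a mean 2.54-fold lower in PANC-1 (log2 difference -1.31, SE 0.222, limma adjusted p = 8.90e-03). The 95% interval of its difference, -1.87 to -0.73, does not overlap that of HLA-B, -4.97 to -3.48, or of HLA-C, -4.08 to -2.66. The order of the heavy chains was thus different in the lines. In each PANC-1 library HLA-E was highest, HLA-C next and HLA-B lowest, and in each 90 library HLA-B was highest and HLA-E lowest. HLA-E made up 45.7%, 47.1% and 45.5% of the summed FPKM of the HLA-B, HLA-C and HLA-E genes in siALDOA 1, siALDOA 2 and NC of PANC-1, and 13.5%, 12.1% and 14.3% in those of 90. These shares moved little among the libraries of a line, and siALDOA left them within a few percentage points of NC.

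B2M, the invariant light chain, was the most abundant of the 9 genes in every library. It was at 495, 687 and 715 FPKM in PANC-1 and at 2430.3, 2074 and 1778 FPKM in 90, a mean 3.31-fold lower in PANC-1 (log2 difference -1.73, SE 0.214, limma adjusted p = 3.17e-03). B2M lies on chromosome 15 (44711517 to 44718145), outside the MHC region. The 95% interval of its difference, -2.28 to -1.18, does not overlap that of HLA-B. The summed FPKM of HLA-B, HLA-C and HLA-E per FPKM of B2M was 0.205, 0.108 and 0.132 in PANC-1 and 0.276, 0.537 and 0.351 in 90, with no overlap between the lines. The spread within 90, from 0.276 to 0.537, was wider than the gap between the nearest libraries of the lines.

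**Figure D2:**
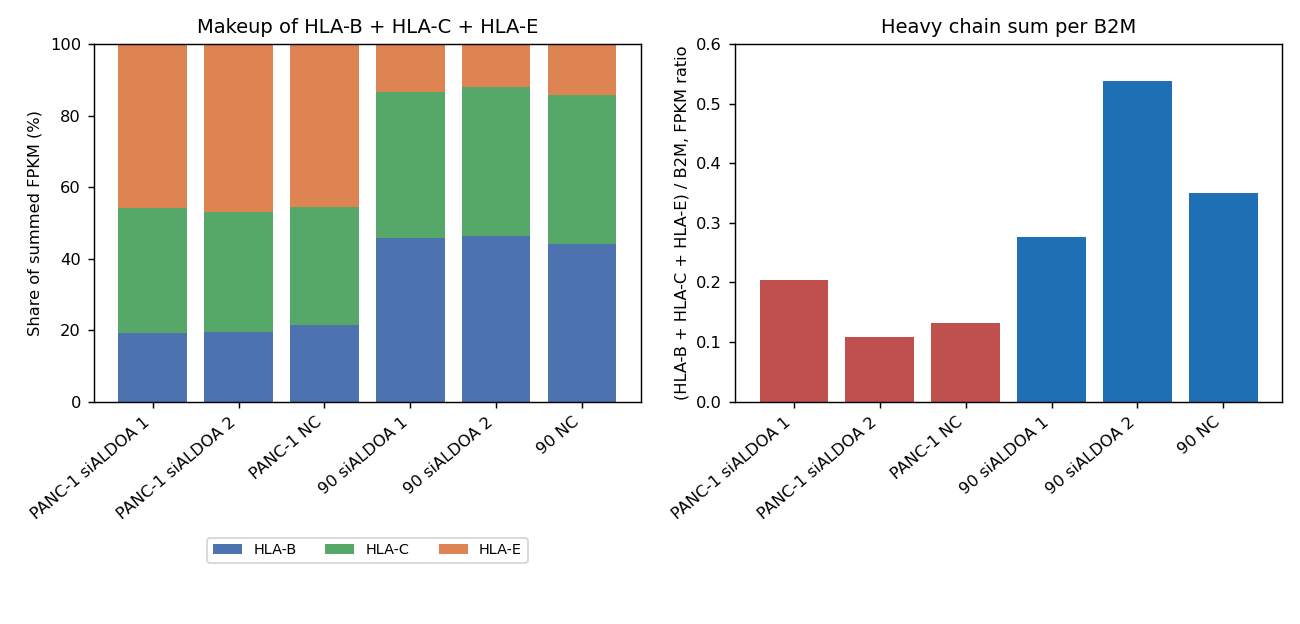
Left, share (%) of HLA-B, HLA-C and HLA-E in their summed FPKM in each library; right, ratio of that sum to B2M FPKM, with red bars for PANC-1 and blue bars for 90, 1 bar per library. HLA-E takes 45.5% to 47.1% in PANC-1 and 12.1% to 14.3% in 90.

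TAP1 and TAP2, the subunits of the peptide transporter, were both lower in PANC-1. TAP1 (chromosome 6, 32845209 to 32853704) was at 12.2, 9.74 and 11.3 FPKM in PANC-1 and at 64.5, 90.03 and 57.8 FPKM in 90 (log2 difference -2.55, SE 0.204, limma adjusted p = 8.49e-04). TAP2 (chromosome 6, 32821831 to 32838739) was at 8.97, 7.35 and 8.47 FPKM in PANC-1 and at 31.01, 39.4 and 32.4 FPKM in 90 (log2 difference -1.93, SE 0.166, limma adjusted p = 1.06e-03). Neither gene overlapped between the lines. TAP1 per TAP2 was 1.36, 1.32 and 1.33 in PANC-1 and 2.08, 2.29 and 1.78 in 90, so TAP1 was above TAP2 in every library. TAP1 overlaps the antisense gene PSMB8-AS1, and no source used here says whether counting used strand, so reads of these genes cannot be told apart.

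Tapasin and ERAP1 did not pass the test between the lines. TAPBP, which encodes tapasin and lies on chromosome 6 (33299694 to 33314078), was at 12.8, 11.2 and 11.6 FPKM in PANC-1 and at 13.0, 16.4 and 14.5 FPKM in 90. All 90 libraries were above all PANC-1 libraries, but by little (log2 difference -0.28, 95% interval -0.68 to 0.12, limma adjusted p = 0.234). ERAP1 (chromosome 5, 96760813 to 96935854) was at 3.77, 7.92 and 4.89 FPKM in PANC-1 and at 12.1, 5.02 and 7.17 FPKM in 90. The lines overlapped, and the interval of the log2 difference, -1.48 to 0.57, still holds a difference of more than 2-fold. ERAP1 overlaps CAST and ERAP2 in RefSeq and TAPBP overlaps RGL2, so the reads of both genes are uncertain. In all, 8 of the 9 genes had every PANC-1 library below every 90 library, all but ERAP1, against 25.1% of tested genes. Of the 8, NLRC5 passed the filter on low values through its level in 90.

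NLRC5, the transactivator of class I genes, had the lowest level of the 9 in PANC-1. NLRC5 (chromosome 16, 56989557 to 57083520) was at 0.591, 0.467 and 0.494 FPKM in siALDOA 1, siALDOA 2 and NC of PANC-1, and at 5.87, 9.14 and 5.31 FPKM in those of 90. The mean was 13.1-fold lower in PANC-1 (log2 difference in FPKM + 1 of -2.33, SE 0.229, limma adjusted p = 1.54e-03), and the pseudocount of 1 FPKM makes the log2 value understate the fold. On its longest GENCODE transcript of 6822 bases, 3 fragments would give 0.0202 to 0.0248 FPKM. The PANC-1 values thus lie above what a handful of fragments gives, though NLRC5 overlaps CFAP69P1 in RefSeq and its reads are uncertain. NLRC5 passed the filter on low values through its level in 90.

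**Figure D3:**
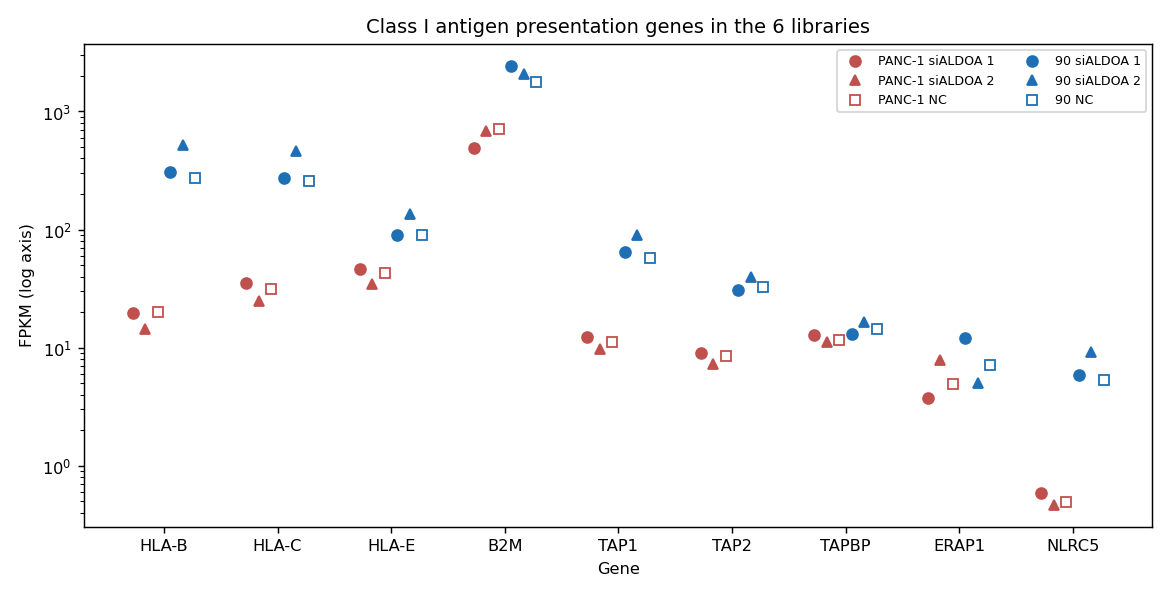
FPKM (log axis) of the 9 genes in each library, red for PANC-1 and blue for 90, circles for siALDOA 1, triangles for siALDOA 2 and open squares for NC. Every gene but ERAP1 has all PANC-1 points below all 90 points, and the gap is widest for HLA-B, HLA-C and NLRC5.

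Of 12 factors that work at class I promoters, 3 were called higher in PANC-1 and 2 lower, near the shares of all tested genes (20.4% higher and 18.4% lower). The factor list and the other gene lists were chosen with earlier results of these data known. NFYC, a subunit of the CCAAT-binding factor NF-Y, was at 37.0, 28.8 and 34.3 FPKM in PANC-1 and at 13.0, 14.8 and 15.8 FPKM in 90 (log2 difference 1.14, limma adjusted p = 4.08e-03). RFX5, of the X-box complex RFX, had a log2 difference of 0.51 (limma adjusted p = 0.0272) and RELA, the p65 subunit of NF-kappaB, of 0.63 (0.039). IRF1, an interferon-induced activator, was at 6.74, 5.86 and 6.10 FPKM in PANC-1 and at 13.0, 17.8 and 15.9 FPKM in 90 (log2 difference -1.19, limma adjusted p = 6.20e-03). NFKB1 was also lower (-0.73, limma adjusted p = 0.0142).

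Of the peptide supply genes, PSMB8, PSMB9, PSME1 and PSME2, all of the interferon-inducible proteasome and its activator, were lower in PANC-1. Of 11 peptide supply genes tested, 4 were called lower and 0 higher, against 18.4% of all tested genes called lower, and the median log2 difference was -0.13. PSMB8, a catalytic subunit of the immunoproteasome encoded beside TAP1, was at 6.99, 5.36 and 6.38 FPKM in PANC-1 and at 52.5, 71.99 and 50.4 FPKM in 90 (log2 difference -3.02, limma adjusted p = 4.78e-04). PSME1 (-2.02) and PSME2 (-0.83), the subunits of the proteasome activator PA28, were lower too, at limma adjusted p = 7.93e-04 and 8.93e-03. PSMB9, another immunoproteasome subunit, had a log2 difference of -1.43 (limma adjusted p = 0.0108). PSMB9 starts close to TAP1 on the other strand, and TAP1 per PSMB9 was 2.05, 2.10 and 1.70 in PANC-1 and 4.34, 3.90 and 4.06 in 90. The ratio of these neighbours was therefore lower in each PANC-1 library than in each 90 library. PSMB10, a further immunoproteasome subunit, was at 50.9, 38.8 and 57.04 FPKM in PANC-1 and at 42.4, 65.0 and 53.02 FPKM in 90 and was not called (limma adjusted p = 0.724).

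Among loading chaperones 2 of 7 were called lower and 0 higher, against 18.4% of all tested genes called lower, so the count is close to that share. TAPBPL, or TAPBPR, the tapasin-related peptide editor, had a log2 difference of -1.39 and PDIA3, the thiol oxidoreductase ERp57, of -0.74 (limma adjusted p = 4.47e-03 and 4.52e-03). Calreticulin was at 799, 644 and 783 FPKM in PANC-1 and at 778, 1031 and 841 FPKM in 90, so the most abundant chaperone of this list overlapped between the lines. Of the 6 other class I and class I-like chains, 4 were tested, and those called lower were HLA-F (-4.33), MR1 (-2.47), which presents vitamin metabolites, and HFE (-1.01), a regulator of iron uptake (limma adjusted p = 4.56e-04, 4.69e-04 and 6.46e-03). HLA-F was at 0.945, 0.848 and 1.08 FPKM in PANC-1 and at 33.9, 56.4 and 29.2 FPKM in 90, and like MR1 passed the filter through its level in 90, so no count over this list is read. HLA-G and CD1D, at 0.314 FPKM or less in every library, were not tested. Of 6 genes of class I turnover and silencing, SUSD6 was called lower (-1.08, limma adjusted p = 8.82e-03), and the PRC2 subunits EZH2, EED and SUZ12 were not called.

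**Figure D4:**
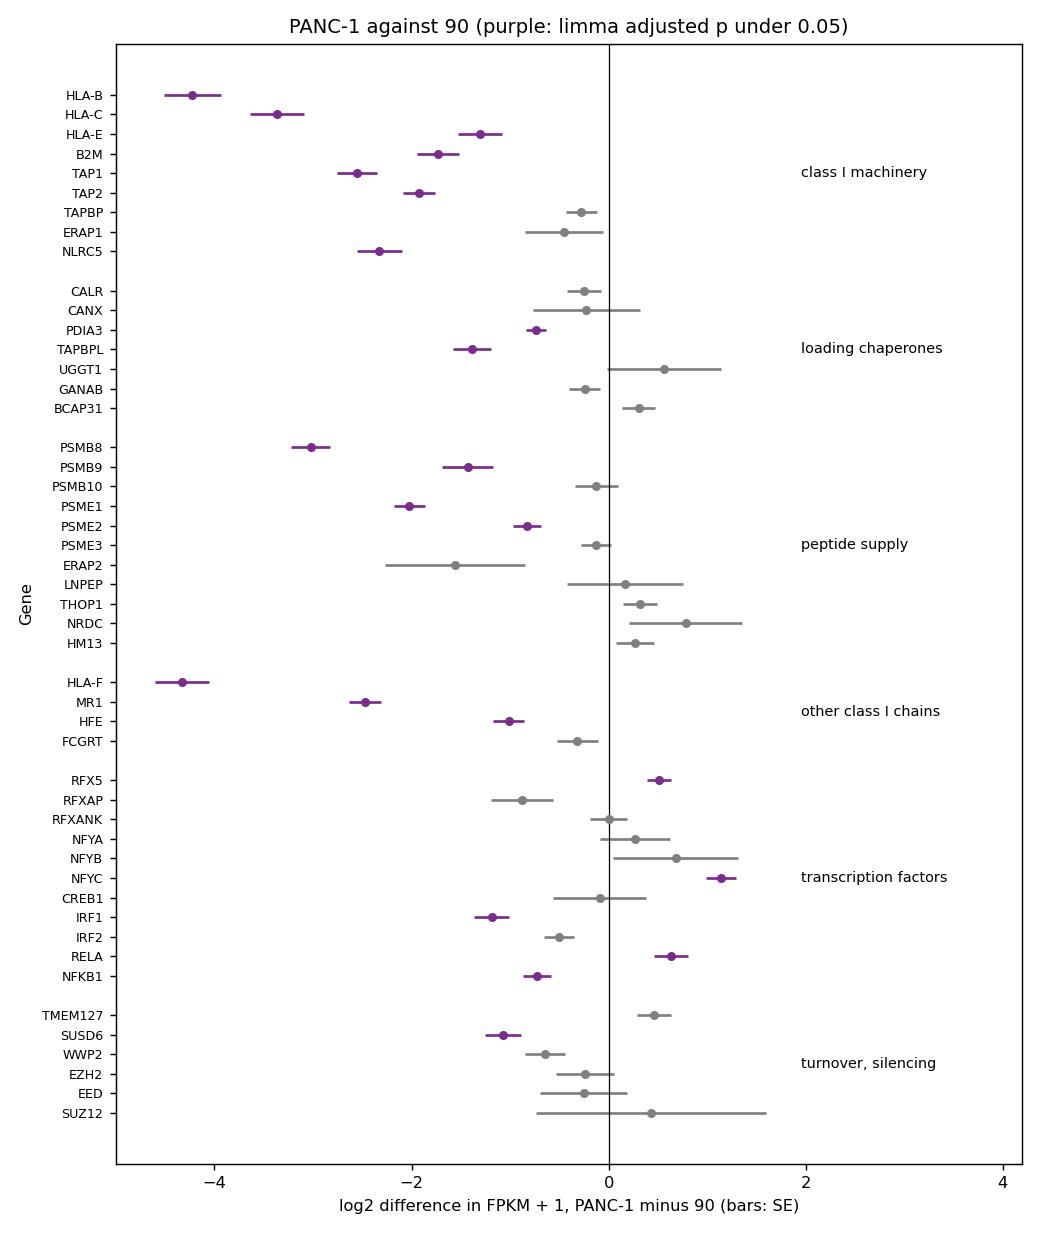
Log2 difference in FPKM + 1 between PANC-1 and 90 with its SE (bars) for the 9 genes and for genes of 5 related lists, down the page; purple points passed limma at an adjusted p under 0.05 and grey points did not. HLA-B, HLA-C, HLA-F and PSMB8 lie beyond -3. TAPBP, at -0.28, and ERAP1, at -0.45 with a wide SE, were not called.

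With siALDOA no class I gene passed the test, and neither did ALDOA itself (log2 change -1.12, SE 0.160, limma unadjusted p = 9.07e-04, adjusted p = 1), although it was lower in each of the 4 siALDOA libraries than in NC. Over both lines 0 of the 9 genes were called, and neither was any other gene (0% of 12592). At an unadjusted p under 0.05 there were 0 of the 9, against 43 of all genes (0.341%). That share is far below the fraction of 0.05 that would be reached with no change in any gene. The same holds for the siALDOA tests within each line and between them, given below. The tests were thus conservative, and a lack of calls says little about whether a gene changed. The fitted log2 changes of the 9 were all above 0, from 0.02 for B2M to 0.22 for NLRC5, with a median of 0.13 against 0.01 over all tested genes. These signs are not stable, since all but that of NLRC5 turned when 1 or another library was left out. B2M and ERAP1 also turned after a correction for GC content and TAPBP after quantile normalization. For HLA-B the 95% interval ran from -0.65 to 0.94, which still holds a change of nearly 2-fold upward. None of the 6 related lists had a gene called. Among their smallest p-values were those of GANAB and BCAP31 among loading chaperones (log2 change 0.39 and -0.12), ERAP2 and PSMB10 in peptide supply (0.63 and -0.18), HFE and HLA-F among other class I chains (0.17 and 0.22), RFXANK among factors (-0.16), TMEM127 and SUSD6 in turnover (0.14 and 0.13) and CD74 in class II (0.10).

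In the 90 line most of the 9 genes had higher values in siALDOA 2 than in NC, and values closer to NC in siALDOA 1. HLA-B was at 1.88 times NC in siALDOA 2 and at 1.12 times NC in siALDOA 1. HLA-C stood at 1.78 and 1.05 times, HLA-E at 1.52 and 1.02 times, TAP1 at 1.56 and 1.12 times and NLRC5 at 1.72 and 1.11 times NC in siALDOA 2 and 1. In siALDOA 2, 8 of the 9 genes were above NC, all but ERAP1, with a median log2 change of 0.60, where 50.3% of all tested genes were above NC and their median was 0.00. In siALDOA 1, 7 of 9 were above NC, with a median of 0.12, where 47.45% of all tested genes were above NC and their median was -0.02. After a correction for GC content B2M and ERAP1, among these 7, were below NC in siALDOA 1 (log2 change -0.62 and -0.52). TAPBP turned the other way, to 0.05, and in siALDOA 2 it was then below NC (-0.03). With this correction siALDOA 1 and 2 lay closer together for most of the 9 genes, but not for B2M and TAP2. They were at 0.36 and 0.43 for TAP1, 0.33 and 0.48 for NLRC5 and 0.37 and 0.70 for HLA-B. Within 90 limma called 0 of the 9 and 0% of all genes, with 0 of the 9 and 0.262% of all genes at an unadjusted p under 0.05. A single NC library stands behind every one of these ratios, so how far NC itself would vary was not measured.

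In PANC-1 most of the 9 genes had lower values in siALDOA 2 than in NC. HLA-B differed from NC by a log2 change of -0.03 in siALDOA 1 and of -0.45 in siALDOA 2. HLA-C was at 1.14 and 0.792 times, HLA-E at 1.08 and 0.814 times and NLRC5 at 1.20 and 0.946 times NC in siALDOA 1 and 2. In siALDOA 2, 1 of the 9 genes was above NC, ERAP1, and in siALDOA 1, 6 of the 9 were, with median log2 changes of -0.18 and 0.09. Of all tested genes, 52.9% were above NC in siALDOA 2 and 52.6% in siALDOA 1. After a correction for GC content TAP1, TAPBP and NLRC5 were above NC in siALDOA 2 too (log2 change 0.003, 0.16 and 0.18). HLA-B, HLA-C, HLA-E, B2M and TAP2 stayed below NC there. In siALDOA 1 B2M and ERAP1 turned above NC with this correction (0.30 and 0.64). Within PANC-1 limma called 0 of the 9 and 0% of all genes (0.167% at an unadjusted p under 0.05, and 0 of the 9). An interaction test, which sets the effect in PANC-1 against that in 90, called a difference for 0 of the 9 and for 0% of all genes (0.191% at an unadjusted p under 0.05, and 0 of the 9). As deposited, HLA-B and B2M were below NC in both siALDOA libraries of PANC-1 and above NC in both of 90. After a correction for GC content this held for HLA-B and not for B2M. With median-ratio scaling (size factors 1.021 for siALDOA 1 and 1.067 for NC of PANC-1) HLA-B in siALDOA 1 of PANC-1 was no longer below NC.

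B2M and ERAP1 moved apart from the other class I genes among the siALDOA libraries, and they are the genes of lowest GC content among the 9. Their longest transcripts have a GC content of 40.6% and 39.7%, against 49.1% to 62.7% for the others. ERAP1 was at 0.772 and 1.62 times NC in siALDOA 1 and 2 of PANC-1, and at 1.69 and 0.699 times NC in those of 90. Within 90, siALDOA 1 was the highest of the libraries for B2M and ERAP1, but siALDOA 2 was for HLA-B, HLA-C, HLA-E, TAP1, TAP2, TAPBP and NLRC5. Both lie in the second lowest eighth of all genes by GC content (39.6% to 42.7%), where the log2 change had a median of -0.53 and 0.47 in siALDOA 1 and 2 of PANC-1, and 0.80 and -0.14 in those of 90. ERAP1 had the same signs as this median in all 4 libraries, and B2M had them in siALDOA 1 of both lines but not in siALDOA 2. In the highest eighth (61.2% GC or more), which holds HLA-C, the median was 0.10 and -0.21 in PANC-1 and -0.27 and 0.11 in 90. After a correction for GC content the log2 change of HLA-B was -0.09 and -0.24 in siALDOA 1 and 2 of PANC-1 and 0.37 and 0.70 in those of 90, and that of B2M was 0.30 and -0.53 in PANC-1 and -0.62 and 0.19 in 90. The part of GC content in the result was not tested beyond this.

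**Figure D5:**
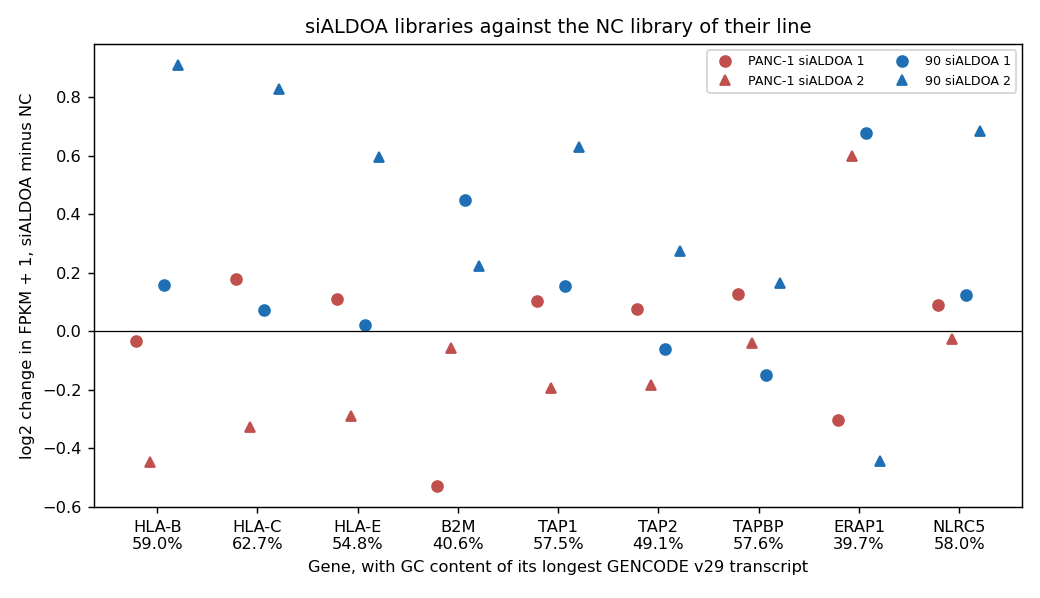
Log2 change in FPKM + 1 from the NC library of the same line for each of the 9 genes, with the GC content of its longest transcript under its name; red for PANC-1, blue for 90, circles for siALDOA 1 and triangles for siALDOA 2. Blue triangles lie highest for HLA-B, HLA-C, HLA-E, TAP1 and NLRC5, at 0.60 to 0.91, and B2M and ERAP1 show another order.

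The genes whose pattern was most like the mean log2 level of the 9 genes were taken by Pearson r over the 6 libraries, which share the wide gap between the lines. At r = 0.9995 to 0.9997, the 5 highest of all tested genes were HLA-F, IFITM1, an interferon-induced membrane protein, TAPSAR1, the antisense gene that overlaps TAP1, ADAMTS7 and LOC101928710. In PANC-1 ADAMTS7 was at 0.0486 to 0.159 FPKM and LOC101928710 at 0 to 0.195 FPKM. These genes, HLA-F and TAPSAR1 passed the filter on low values through their level in 90. IFITM1 was at 26.5, 19.5 and 23.2 FPKM in PANC-1 and at 1463, 2311 and 1008 FPKM in 90. Over the deviations of the 6 libraries from the mean of their line, the most alike were LOC101927765, TAPSAR1, ZSWIM3, NEURL3 and C19orf66, at r = 0.994 to 0.996. C19orf66 was at 5.78, 5.13 and 5.61 FPKM in PANC-1 and at 20.05, 27.9 and 16.0 FPKM in 90. TAPSAR1, in both sets, was at 0.911, 0.770 and 0.906 FPKM in PANC-1 and at 8.36, 10.98 and 6.79 FPKM in 90. It is the antisense gene named PSMB8-AS1 above. Its reads and those of TAP1, which is among the 9 genes, cannot be told apart, so its likeness is uncertain. This likeness, over 6 libraries from 2 lines whose GC trends differ, is a description.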

How the data were processed

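Poly(A) RNA of 6 libraries was sequenced, per the labels' protocols. The authors deposited FPKM values for each gene. HISAT2, featureCounts and hg38 are named, per the submitters' processing notes. Their versions, the strand use and the gene lengths were not given in the sources. Of 41769 rows, 1 had no gene name and was left out. NRDC and SUSD6 were found under the older symbols NRD1 and KIAA0247.

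Values were analysed as log2(FPKM + 1), which understates fold changes of low genes. The 12592 genes that averaged 1 FPKM or more were tested, two-sided, with limma 3.58.1 in R 4.3.3 and an intensity trend. Terms for line and siALDOA left 3 residual degrees of freedom. Effects within a line and their difference came from 4 group means with 2, on the assumption that a single NC library varies as siALDOA libraries do. P-values were adjusted over all tested genes by Benjamini-Hochberg and called under 0.05. Depth came from microRNA, snoRNA and snRNA genes, where 95.0% to 95.9% of low values fell on whole multiples (up to 8, tolerance 0.03) of a step; counts were not rebuilt. GC content (GENCODE v29) was found for 90.6% of tested genes, and its trend was removed per library by lowess.

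Genes and lists were chosen with earlier results of these data known. The naming rule took all 9 genes, up to 5 called genes of each list by size of change or, where none was called, the 2 with the smallest p, and the 5 genes most like the 9. PSMB10, CALR, EZH2, EED, SUZ12, HLA-G, CD1D, HLA-DQB1 and CIITA were named after their values were seen. The values of 1 gene of the factor list are not reported here.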

Additional observations from a re-analysis of the deposited data

Results flagged for a closer look

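The siALDOA effect on HLA-B and on B2M had opposite directions in the lines as deposited. Both siALDOA libraries of PANC-1 were below their NC library and both of 90 were above theirs. For HLA-B the log2 effect was -0.24 in PANC-1 and 0.53 in 90, a difference of -0.77 (SE 0.596). For B2M it was -0.29 in PANC-1 and 0.34 in 90, a difference of -0.63 (SE 0.440). Neither difference passed limma's interaction test (adjusted p = 1 for each), and each line has a single NC library. After a correction for GC content the log2 change of B2M was 0.30 and -0.53 in siALDOA 1 and 2 of PANC-1 and -0.62 and 0.19 in those of 90, so its opposition did not hold, while that of HLA-B did.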

How the results depend on the processing

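Between the lines, HLA-B, HLA-C, HLA-E, B2M, TAP1, TAP2 and NLRC5 were called lower in PANC-1 under every alternative that tested them. The filter at a mean of 5 FPKM left NLRC5 out, so 6 of 8 were called there. Median-ratio scaling took the median of all genes to 0.02, against 0.13 unscaled, and the 9 genes had a median of -2.08 relative to it, against -2.06 unscaled. The number of genes called between the lines ran from 2422 (without NC of PANC-1; 2424 without NC of 90) to 4110 with 1 library left out.

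For siALDOA over both lines, with 1 library left out the log2 change ran from -0.29 to 0.34 for B2M, -0.10 to 0.38 for ERAP1, -0.24 to 0.53 for HLA-B, -0.074 to 0.45 for HLA-C, -0.089 to 0.31 for HLA-E, -0.045 to 0.39 for TAP1, -0.057 to 0.11 for TAP2 and -0.040 to 0.10 for TAPBP. After the GC correction B2M was at -0.16 and ERAP1 at -0.082, and after quantile normalization TAPBP was at -0.037. Without siALDOA 1 of 90 and siALDOA 2 of PANC-1, left out together as an alternative chosen after seeing the data, B2M was at -0.15 and ERAP1 at -0.37, with 0 genes called. The cause of these turns was not tested. With no filter on low values 38 genes were called within 90 and 49 within PANC-1, 0 of the 9 among them.

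With the replicate block, the siALDOA numbers shared by the lines, 3258 genes and 7 of the 9 were called between the lines and 0 with siALDOA. The labels do not say that the numbers pair libraries, and the differences between siALDOA 1 and 2 correlated at -0.86 across genes of the lines, so crossed numbers, chosen after seeing the data, were tried and gave 7594 genes and 9 of the 9 between the lines and 0 with siALDOA. FPKM carry no counts, so intervals for counting error are not given, and reads of class I genes can be shared.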

Other observations

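Of 10 genes of class II presentation, which professional antigen-presenting cells use, 1 reached the filter. It was CD74, the invariant chain, at 2.83, 2.29 and 2.19 FPKM in siALDOA 1, siALDOA 2 and NC of PANC-1 and at 59.3, 88.1 and 69.7 FPKM in those of 90 (log2 difference -4.40, limma adjusted p = 2.22e-04). HLA-DQB1 was at 0.0434 FPKM or less in PANC-1 and at 0.741 to 1.29 FPKM in 90, and CIITA, the class II transactivator related to NLRC5, was at 0.200 FPKM or less in every library.

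Of 5 fibroblast markers COL1A1 reached 1 FPKM, at 9.96 to 13.7 FPKM in PANC-1 and 1.20 to 1.68 FPKM in 90. Of 5 endothelial markers CDH5 did, at 0 in each PANC-1 library and 3.004 to 3.28 FPKM in 90.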
